A study of Mus musculus with 8 samples.

Results

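Imprinted genes, which are transcribed mainly from the copy inherited from one parent, were described across 8 arrays of neurospheres grown from mouse embryonic stem cells. The set was a list of 36 genes taken by name, and each was read from the probes that carry its symbol in the scanner files. Of the 36, 35 had such a probe and Rian had none under that name. After a filter for probes well above background on at least 2 of the 8 arrays, 33 were kept out of 27146 genes kept on the array. Phlda2 and Rtl1 were left out because each was well above background on 1 array.

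Imprinted genes lie in clusters, and the choice of parental copy is set by DNA methylation that one germ line lays down at a control region. Many paternally expressed genes favour growth or keep cells undifferentiated, and several maternally expressed ones restrain growth. Brain is one of the tissues in which imprinted genes are most active. A hybridisation to total RNA gives the summed output of both copies, so these values say nothing about which parental allele was transcribed.

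The cells were EB3 mouse embryonic stem cells taken through embryoid bodies with Noggin, an inhibitor of bone morphogenetic proteins. Embryoid bodies were dissociated at day 6, infected with lentivirus and grown as primary neurospheres (P0) with FGF2 at 20 ng/ml for 6 days, or passaged to tertiary neurospheres (P2). At each passage 4 conditions were measured with 1 array each: an shRNA against firefly luciferase (control shRNA), an shRNA against both Nr2f1 and Nr2f2 (Nr2f1/2 shRNA), a miRNA against lacZ (control miRNA) and miR-17 overexpression. Nr2f1 and Nr2f2 encode the COUP-TF nuclear receptors, and miR-17 is a microRNA of the miR-17-92 cluster. All groups shared the stem cell line, the Noggin step and a lentiviral vector. The labels do not say whether cultures were independent or whether a P2 culture descended from the P0 culture on its array, so p-values measure only the spread between these 8 arrays. The arrays lay on 1 slide, the shRNA arrays in one column and the miRNA arrays in the other, so vector system and slide column cannot be told apart.

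Levels are log2 intensities relative to the 75th percentile of the same array, so 0 marks that percentile, and no probe's level is compared with another probe's. Between 57.9% and 67.9% of probes were well above background on each array. With the Nr2f1/2 shRNA, the linear level of Nr2f1 differed from that with control shRNA by -42.2% at P0 and -55.6% at P2, and that of Nr2f2 by -29.6% and -46.4%. All 11 neural progenitor markers were well above background on every array. The 16 cell cycle genes had a summed level (linear, in multiples of the 75th percentile) of 155.5 to 230.4 on the P0 arrays and of 40.9 (control shRNA), 163.1 (Nr2f1/2 shRNA), 33.7 (control miRNA) and 29.4 (miR-17) at P2. The 10 astrocyte markers summed to 12.9 to 19.8 at P0 and to 170.7, 66.5, 433.2 and 411.8 in that order at P2, and the 10 oligodendrocyte lineage markers to 8.16 to 9.26 at P0 and 128.8, 14.8, 370.5 and 390.6 at P2. The 11 neural crest and mesenchyme markers summed to 9.29 to 37.6 at P0 and 31.5 to 100.9 at P2. Of 9 neuronal markers 8 were lower at P2 (sums 121.9 to 286.5 at P0, 80.2 to 126.2 at P2), as were 7 of 10 pluripotency markers (13.03 to 29.9 and 8.21 to 9.14) and all 10 kept mesoderm and endoderm markers (9.18 to 16.1 and 1.10 to 11.7). The array of P2 neurospheres with Nr2f1/2 shRNA thus stood near the P0 arrays in its cell cycle sum and lowest among the P2 arrays in its glial sums. Its crest and mesenchyme sum (31.5) was also the lowest at P2. Its neuronal and pluripotency sums (115.1 and 9.14) lay near those of control shRNA at P2 (126.2 and 8.39). Its mesoderm and endoderm sum was 11.7, beside 9.43. The sums thus did not all set this array apart, and their part in the results on imprinted genes described next was not tested. In bulk RNA, fewer cells of a type and less RNA per cell cannot be told apart.

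Most of the listed genes were lower in tertiary than in primary neurospheres. Over the 4 conditions, 25 of the 33 were lower at P2 and 8 higher, with a median difference of -0.81 log2 units, while 60.6% of all 27146 genes were lower, with a median of -0.21. In a limma fit with condition as a block and adjustment over all genes (Benjamini-Hochberg), 2 imprinted genes passed an adjusted p of 0.05, Mest as lower and Nap1l5 as higher. Nap1l5 had passed the background filter mainly through P2, where it was high, since 3 of its 4 P0 values were not well above background. Across the array 1347 genes, or 4.96%, passed, so the share of members called was near the background. Unadjusted p-values were below 0.05 for 20 members (17 lower, 3 higher), which is 60.6% of them against 40.1% of all genes.

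The call count turned on the Nr2f1/2 shRNA arrays. In the same fit without them (6 arrays, 2 residual degrees of freedom), 13 members passed as lower and 4 as higher, 51.5% of the 33, where 17.6% of all genes passed. Leaving out any other array left 0 members called, and 0 of all genes, so that count says nothing particular about the members. The 13 that were called lower in the fit without the knockdown were Igf2, Dlk1, Meg3, Mirg, Magel2, Mkrn3, Peg12, Peg10, Mest, Nnat, Plagl1, Grb10 and Slc38a4, and the 4 called higher were Slc22a18, Nap1l5, Gatm and Impact. The shared spread in that fit comes from 3 conditions, and whether the passage difference itself changed with the knockdown was tested separately, as given further on.

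**Figure D1:**
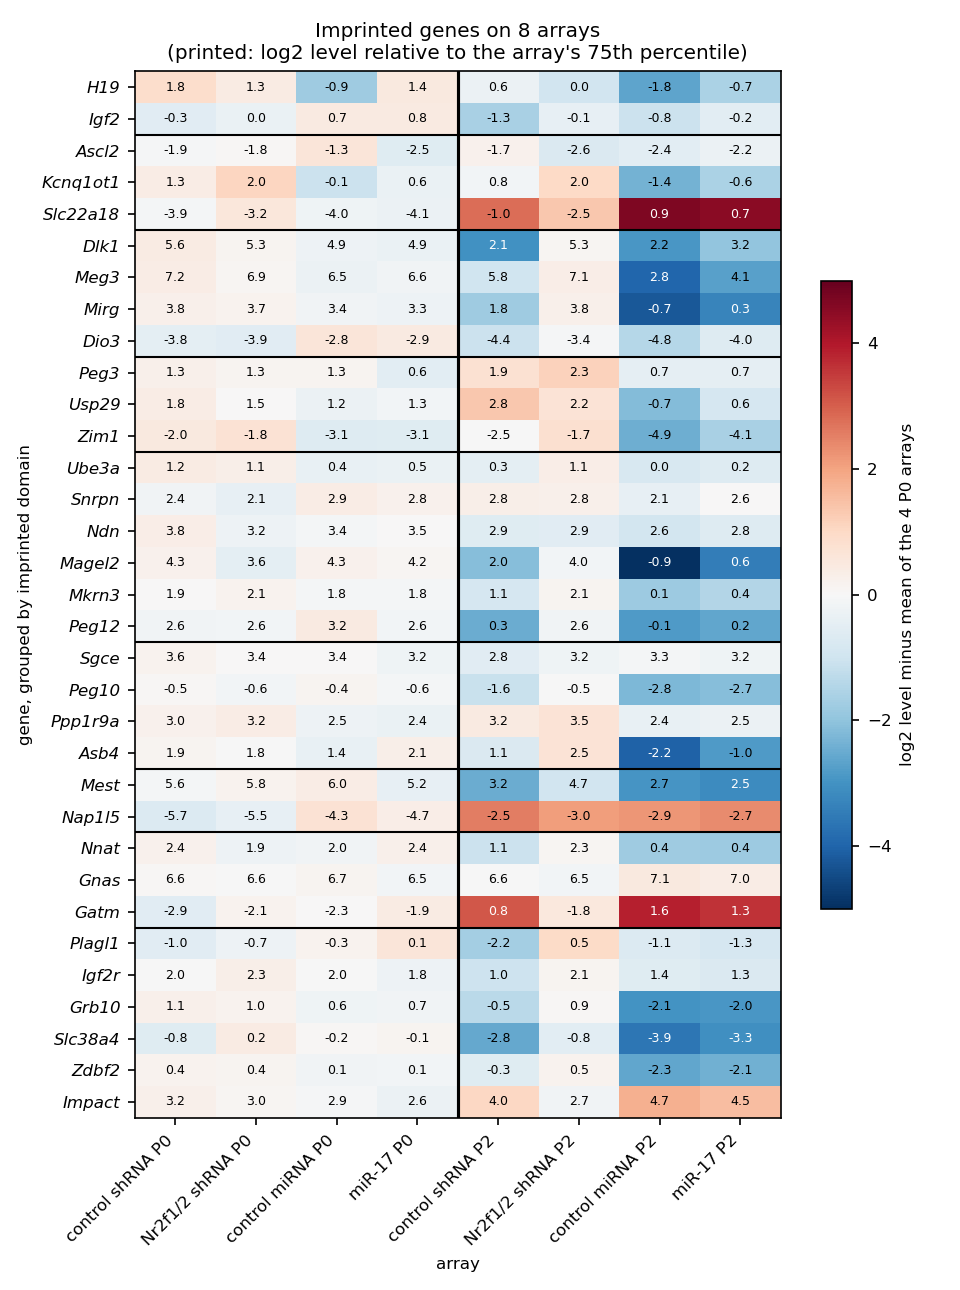
Heat map of 33 imprinted genes (rows, grouped by domain) on 8 arrays (columns, P0 left and P2 right of the line). Each cell prints the log2 level relative to the array's 75th percentile, and its colour gives that level minus the mean of the 4 P0 arrays. Magel2 on the control miRNA P2 array is the deepest blue at a level of -0.89, and the Nr2f1/2 shRNA P2 column is mostly pale.

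The Dlk1-Dio3 domain on chromosome 12 is described first because all 4 of its kept genes were lower at P2 on the probes used. Their patterns were not alike throughout. In control miRNA minus control shRNA at P2, Meg3 (-2.98) and Mirg (-2.49) differed far more than Dlk1 (0.11) and Dio3 (-0.34). Dlk1, paternally expressed, encodes a transmembrane relative of the Notch ligands that holds back differentiation of several precursor types. Meg3 and Mirg are maternally expressed long noncoding RNAs, and Mirg hosts a large cluster of microRNAs. Dio3 encodes the deiodinase that inactivates thyroid hormone. The promoter windows of Dlk1 and Meg3 are shown as the starts of the paternally and the maternally expressed transcript (RefSeq, GRCm38.p6, 250 bases upstream of the start). Capitals mark TGCCGC or its reverse complement GCGGCA, the core of the motif bound by Zfp57, a factor that keeps imprints methylated.
Dlk1 promoter, chr12:109452573-109452822, plus strand: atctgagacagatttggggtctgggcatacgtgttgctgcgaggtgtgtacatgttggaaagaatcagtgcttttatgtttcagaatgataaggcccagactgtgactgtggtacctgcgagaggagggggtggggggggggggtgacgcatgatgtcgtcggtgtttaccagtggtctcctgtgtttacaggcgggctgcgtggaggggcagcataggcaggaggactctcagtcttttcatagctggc
Meg3 promoter, chr12:109540746-109540995, plus strand: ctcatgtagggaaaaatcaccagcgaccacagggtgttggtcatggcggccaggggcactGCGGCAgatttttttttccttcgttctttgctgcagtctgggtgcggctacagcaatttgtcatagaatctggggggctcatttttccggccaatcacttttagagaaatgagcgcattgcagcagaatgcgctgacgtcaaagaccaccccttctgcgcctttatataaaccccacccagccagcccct
These letters occurred once in the Meg3 window and not in that of Dlk1. The Meg3 window shown was chosen as the one with most of these letters, and a further one, chr12:109545148-109545397, held 0. The probes for the noncoding RNAs are shown because they define what was measured, which matters most for Meg3, whose probes disagreed (coordinates in mm9, the build of the scanner files).
Meg3 probe, chr12:110799558-110799617, plus strand: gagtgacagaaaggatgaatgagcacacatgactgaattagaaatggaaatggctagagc
Meg3 probe, chr12:110809678-110809737, plus strand, value used: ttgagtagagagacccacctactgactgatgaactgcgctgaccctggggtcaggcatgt
Mirg probe, chr12:110987569-110987628, plus strand, value used: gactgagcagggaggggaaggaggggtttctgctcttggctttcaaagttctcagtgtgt

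Dlk1 stood at 5.57 with control shRNA, 5.32 with Nr2f1/2 shRNA, 4.93 with control miRNA and 4.86 with miR-17 at P0, and at 2.13, 5.25, 2.24 and 3.19 in that order at P2. The 3 other P2 arrays lay below every P0 array, and the Nr2f1/2 shRNA P2 array lay within the P0 range. Its P2 minus P0 difference was -1.97 log2 units (SE 0.58, adjusted p = 0.0790 by limma), and -2.60 (SE 0.41, adjusted p = 0.028) without the Nr2f1/2 shRNA arrays.

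Meg3, in the same order of conditions, read 7.17, 6.89, 6.52 and 6.63 at P0 and 5.81, 7.14, 2.83 and 4.08 at P2. The P0 values spanned less than 1 log2 unit, while the P2 values spread from the control miRNA array at the bottom to the Nr2f1/2 shRNA array near the top. The passage difference was -1.84 (SE 0.66, adjusted p = 0.107). A further probe, at chr12:110799558-110799617, gave 0.10. On that probe the knockdown difference at P2 was -0.85, opposite in sign to the 1.33 of the probe used. Meg3 is therefore reported by probe, and the direction of the probe used does not extend to the other.

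Mirg read 3.81, 3.73, 3.40 and 3.31 at P0 and 1.80, 3.83, -0.69 and 0.25 at P2. As for Dlk1, each of the 3 other P2 arrays was lower than all P0 arrays and the Nr2f1/2 shRNA P2 array was not. The passage difference was -2.27 (SE 0.70, adjusted p = 0.0849) and its 2 probes gave -2.31 and -2.27. Dio3 was below the 75th percentile throughout, at -3.85, -3.92, -2.76 and -2.93 at P0 and -4.45, -3.44, -4.78 and -4.02 at P2, and its passage ranges overlapped (-0.81, SE 0.43, adjusted p = 0.214). Rtl1, a retrotransposon-derived gene of the same domain that acts in placenta, was well above background on 1 array.

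The Prader-Willi/Angelman domain of central chromosome 7 held genes that changed widely and genes that hardly changed. Magel2, Ndn and Mkrn3 are paternally expressed genes of the human Prader-Willi region, Magel2 and Ndn being MAGE family members and Mkrn3 a ring-finger protein that restrains puberty. Peg12 is a paternally expressed gene beside them. Magel2 read 4.30, 3.59, 4.30 and 4.17 at P0 and 1.97, 3.95, -0.89 and 0.63 at P2. Between P0 and P2 it differed by -2.67 (SE 0.91, adjusted p = 0.0971), and by -3.69 (SE 0.60, adjusted p = 0.030) without the Nr2f1/2 shRNA arrays.

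Peg12 read 2.59, 2.64, 3.20 and 2.60 at P0 and 0.29, 2.56, -0.08 and 0.15 at P2. Every P2 value lay below every P0 value, although the Nr2f1/2 shRNA arrays differed by only -0.07. The passage difference was -2.02 (SE 0.55, adjusted p = 0.0710) and its 2 probes gave -2.02 and -1.67.

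Mkrn3 read 1.93, 2.12, 1.84 and 1.81 at P0 and 1.08, 2.05, 0.10 and 0.44 at P2 (difference -1.01, SE 0.32, adjusted p = 0.0892). Its means were 1.93 ± 0.14 at P0 and 0.92 ± 0.86 at P2 (SD, n = 4 arrays each), and those of Ndn 3.48 ± 0.26 and 2.79 ± 0.16. The Ndn arrays did not overlap between passages, with a difference of -0.69 (SE 0.20, adjusted p = 0.0767). Snrpn, which encodes a spliceosomal protein and shares its transcript with Snurf, differed by 0.03 (SE 0.30), and its 3 probes ran from -0.12 to 0.27. Ube3a, the ubiquitin ligase lost in Angelman syndrome and maternally expressed in neurons, differed by -0.40 (SE 0.23, adjusted p = 0.243). Within this domain, Magel2 and Peg12 thus had the larger differences, and Snrpn had none beyond its error.

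**Figure D2:**
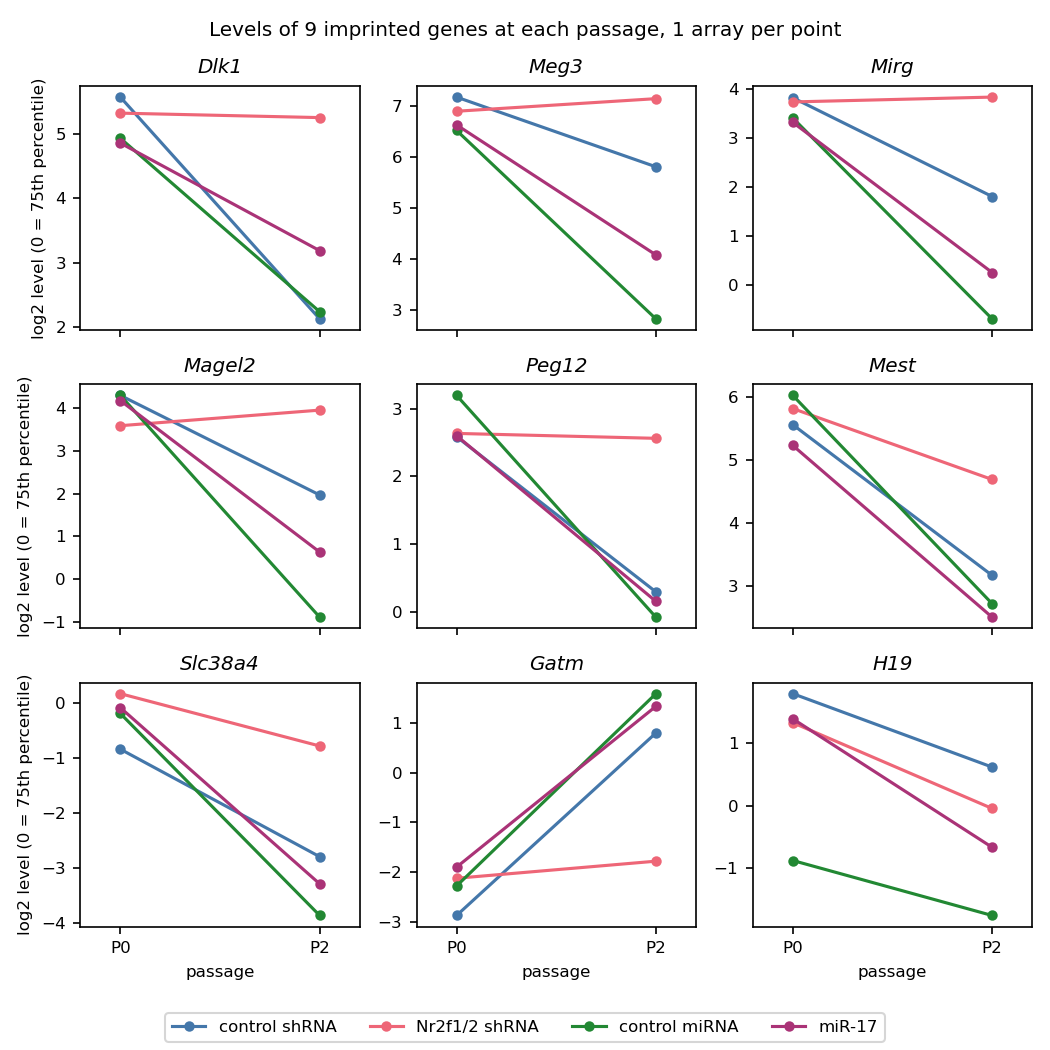
Log2 levels of 9 imprinted genes at P0 and P2 in each of 4 conditions, 1 array per point, with lines joining the arrays of a condition. For Dlk1, Mirg, Magel2 and Peg12 the Nr2f1/2 shRNA line is near level while the other 3 lines descend. For Gatm the other 3 ascend, and for Mest and H19 all 4 descend.

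Mest and Nap1l5, paternally expressed genes of separate domains on chromosome 6, were the members called for passage. Mest encodes a hydrolase-like protein that favours growth, and Nap1l5 is an intronless gene related to nucleosome assembly proteins that lies in an intron of Herc3. Their promoter windows are shown with the Zfp57 core marked (RefSeq, GRCm38.p6, capitals as before). For Mest the window with most of these letters was chosen, so their presence was fixed by that choice. A further Mest window, chr6:30733256-30733505, held 0.
Mest promoter, chr6:30737800-30738049, plus strand: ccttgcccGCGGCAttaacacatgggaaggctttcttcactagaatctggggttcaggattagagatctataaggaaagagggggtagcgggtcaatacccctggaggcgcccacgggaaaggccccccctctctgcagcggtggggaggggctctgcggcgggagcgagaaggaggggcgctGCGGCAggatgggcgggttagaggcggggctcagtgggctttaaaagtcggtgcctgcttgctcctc
Nap1l5 promoter, chr6:58907127-58907376, minus strand: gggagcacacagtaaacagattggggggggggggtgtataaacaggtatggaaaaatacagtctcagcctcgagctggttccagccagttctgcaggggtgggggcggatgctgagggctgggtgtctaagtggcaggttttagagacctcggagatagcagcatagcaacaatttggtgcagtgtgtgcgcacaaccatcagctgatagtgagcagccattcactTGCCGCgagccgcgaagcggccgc
The Mest window has the letters 242 and 67 bases before the start and the Nap1l5 window 24 bases before it. TGCCGC on either strand was present in 8.68% of the 32851 windows of this length in the table, and in 7 of the 49 windows of members, from 6 of the 31 members with a window (Zdbf2, Mest, Nap1l5, Zim1, Plagl1 and Meg3). The 7 include overlapping Mest windows, chr6:30737800-30738049 and chr6:30737803-30738052, which hold the same letters. GGGGCCCC, the motif of Plagl1, which is its own reverse complement, was in 0.889% of all windows and in those of Ppp1r9a and Peg3. A match describes the letters and is not evidence of binding.

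Mest read 5.56, 5.81, 6.02 and 5.23 at P0 and 3.17, 4.69, 2.72 and 2.51 at P2. All 4 conditions were lower at P2, including the Nr2f1/2 shRNA pair at -1.12, and the passages did not overlap. Mest fell by 2.38 log2 units (SE 0.39, adjusted p = 0.0428), a 5.21-fold change, with 3 probes between -2.38 and -1.99.

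Nap1l5 read -5.74, -5.46, -4.32 and -4.72 at P0 and -2.49, -2.98, -2.86 and -2.71 at P2. It was higher at P2 in all 4 conditions, and not well above background on 3 of the 4 P0 arrays. With the dim arrays set to the lowest signal well above background, Nap1l5 was at least 3.90-fold higher at P2. The fitted difference (2.30 log2 units, SE 0.33, adjusted p = 0.0390) uses the background values of the dim arrays, so its size and error are not those of a measured P0 level.

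Igf2 and H19 share enhancers on distal chromosome 7, Igf2 encoding a fetal growth factor expressed from the paternal copy and H19 a maternally expressed noncoding RNA. The H19 probe used is shown as the one of 7 with the highest signal.
H19 probe, chr7:149761492-149761551, minus strand, value used: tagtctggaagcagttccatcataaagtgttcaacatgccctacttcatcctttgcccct
H19 read 1.78, 1.32, -0.87 and 1.38 at P0 and 0.61, -0.05, -1.75 and -0.67 at P2. It was lower at P2 in all 4 conditions, and the control miRNA array was the lowest of its passage both times. The passage difference was -1.36 (SE 0.25, adjusted p = 0.0506), just above the threshold of 0.05, and the 7 probes ran from -1.51 to -1.11. Igf2 read -0.26, -0.03, 0.74 and 0.76 at P0 and -1.33, -0.13, -0.78 and -0.23 at P2, a difference of -0.92 (SE 0.28, adjusted p = 0.0834). Igf2r, the maternally expressed receptor that clears Igf2, read 2.01, 2.30, 1.99 and 1.77 at P0 and 1.0, 2.14, 1.40 and 1.30 at P2, a difference of -0.56 (SE 0.22, adjusted p = 0.121). Ligand and receptor were both lower at P2 on average, with P0 and P2 ranges that overlapped for each.

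The neighbouring Kcnq1ot1 domain is silenced on the paternal copy by the long antisense RNA for which it is named. Kcnq1ot1 itself read 1.32, 2.02, -0.11 and 0.62 at P0 and 0.81, 1.98, -1.39 and -0.62 at P2. The shRNA arrays were above the miRNA arrays at both passages, and the passage difference was -0.77 (SE 0.28, adjusted p = 0.110). Slc22a18, a maternally expressed transporter gene of this domain, read -3.89, -3.24, -4.02 and -4.10 at P0 and -1.02, -2.47, 0.87 and 0.70 at P2. It was higher at P2 in all 4 conditions and did not overlap, and its difference of 3.33 (SE 0.76, adjusted p = 0.0605) was the largest in size among the 33 members. Ascl2, a bHLH factor of trophoblast, read -1.93, -1.82, -1.25 and -2.46 at P0 and -1.65, -2.57, -2.40 and -2.16 at P2, with no passage difference beyond its error (-0.33, SE 0.32). Phlda2, a maternally expressed gene that limits placental growth, was well above background on 1 array.

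As in every domain other than those of Mest and Nap1l5, no gene of the Peg3 domain on proximal chromosome 7 was called for passage. Peg3 encodes a large zinc-finger protein, Usp29 is a deubiquitinase gene transcribed from the same start region in the opposite direction, and Zim1 is a maternally expressed zinc-finger gene. Peg3 read 1.35, 1.27, 1.25 and 0.58 at P0 and 1.89, 2.27, 0.66 and 0.68 at P2 (difference 0.26, SE 0.31). Usp29 read 1.83, 1.49, 1.18 and 1.34 at P0 and 2.82, 2.16, -0.70 and 0.61 at P2 (difference -0.24, SE 0.53). For both genes the shRNA arrays were higher at P2 than at P0, while the control miRNA array was lower. Zim1 read -2.00, -1.76, -3.12 and -3.10 at P0 and -2.50, -1.70, -4.93 and -4.13 at P2 (difference -0.82, SE 0.34, adjusted p = 0.140), and was not well above background on the control miRNA P2 array.

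The Peg10-Sgce domain on chromosome 6 contrasted Peg10 and Asb4 with Sgce and Ppp1r9a. Peg10 is a retrotransposon-derived gene and Sgce encodes epsilon-sarcoglycan, both paternally expressed, while Asb4 is a maternally expressed ankyrin repeat gene and Ppp1r9a encodes neurabin, an actin-binding protein. Peg10 read -0.47, -0.64, -0.39 and -0.61 at P0 and -1.64, -0.55, -2.78 and -2.66 at P2 (difference -1.38, SE 0.45, adjusted p = 0.0930). Asb4 read 1.92, 1.76, 1.43 and 2.07 at P0 and 1.05, 2.47, -2.23 and -1.04 at P2 (difference -1.74, SE 0.79, adjusted p = 0.161). In both, the miRNA arrays at P2 were lowest and the Nr2f1/2 shRNA P2 array was not below its P0 partner. Sgce had means of 3.39 ± 0.15 at P0 and 3.12 ± 0.21 at P2, and Ppp1r9a of 2.78 ± 0.36 and 2.90 ± 0.52 (SD, n = 4 arrays each).

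On chromosome 2, Gatm stood apart from Nnat and Gnas. Gatm encodes the first enzyme of creatine synthesis, and its imprinting is described for placenta. It read -2.87, -2.12, -2.28 and -1.90 at P0 and 0.80, -1.78, 1.59 and 1.33 at P2, so that passages did not overlap but the Nr2f1/2 shRNA P2 array lay beside the P0 arrays. The difference was 2.78 (SE 0.65, adjusted p = 0.0612), and 3.59 (SE 0.25, adjusted p = 0.013) without the Nr2f1/2 shRNA arrays. Nnat, a small membrane proteolipid gene of developing brain, read 2.39, 1.94, 2.00 and 2.43 at P0 and 1.10, 2.27, 0.41 and 0.37 at P2 (difference -1.15, SE 0.43, adjusted p = 0.113). Gnas encodes the stimulatory G protein alpha subunit, and its used probe, the most downstream of 4, had means of 6.61 ± 0.11 at P0 and 6.78 ± 0.30 at P2 (SD, n = 4 arrays each). Of 3 Gnas probes further upstream, 1 was well above background on 2 arrays, and the other two gave passage differences of -1.07 and -0.54, so the value for Gnas holds for its downstream probe alone.

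The remaining members sit in domains of their own. Grb10, an adaptor that restrains insulin and IGF receptors, read 1.10, 1.03, 0.64 and 0.67 at P0 and -0.50, 0.92, -2.14 and -2.03 at P2 (difference -1.79, SE 0.50, adjusted p = 0.0745). Slc38a4, a paternally expressed amino acid transporter gene, read -0.84, 0.17, -0.19 and -0.08 at P0 and -2.79, -0.78, -3.86 and -3.28 at P2 (difference -2.44, SE 0.50, adjusted p = 0.0545). Slc38a4 was lower at P2 in all 4 conditions, whereas the Nr2f1/2 shRNA pair of Grb10 differed by -0.11. Zdbf2, whose paternal expression is set in the early embryo, read 0.44, 0.43, 0.11 and 0.14 at P0 and -0.33, 0.46, -2.31 and -2.14 at P2 (difference -1.36, SE 0.48, adjusted p = 0.105). Plagl1, a zinc-finger factor counted as a regulator of other imprinted genes, read -1.02, -0.70, -0.27 and 0.14 at P0 and -2.16, 0.48, -1.14 and -1.29 at P2 (difference -0.57, SE 0.48, adjusted p = 0.404). Impact, a paternally expressed inhibitor of the Gcn2 stress kinase, read 3.19, 3.04, 2.87 and 2.62 at P0 and 3.97, 2.75, 4.72 and 4.45 at P2 (difference 1.05, SE 0.42, adjusted p = 0.131). On the probes used, Plagl1 was highest and Impact lowest of the P2 arrays under Nr2f1/2 shRNA. The Plagl1 probes disagreed, and on another of them that array was the lowest at P2 (-2.90).

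By parental copy, 16 of 20 paternally expressed members were lower at P2 with a median of -0.86, and 7 of 9 maternally expressed ones with a median of -0.82. The 4 members whose imprint depends on tissue had a median of -0.11. The medians of the first pair of classes lay close together, and no test was made of their difference.

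Within each condition, the P2 minus P0 difference of a pair of arrays has no replicate. With control shRNA, 14 of the 33 members were at least 2-fold lower at P2 and 3 at least 2-fold higher, where 13.9% and 12.9% of all genes were. With control miRNA, 19 were lower and 4 higher (28.3% and 15.9% of all genes), and with miR-17, 18 were lower and 4 higher (28% and 15.4%). With Nr2f1/2 shRNA, 2 were lower and 2 higher (8.18% and 6.37%). The member medians were -0.87 with control shRNA, -1.52 with control miRNA, -1.09 with miR-17 and 0.05 with Nr2f1/2 shRNA, beside all-gene medians of -0.19, -0.25, -0.22 and -0.11. With Nr2f1/2 shRNA, Mest (-1.12) and H19 (-1.37) were the members at least 2-fold lower, and Nap1l5 (at least 4.39-fold, its P0 array not being well above background) and Plagl1 (1.18) those at least 2-fold higher. The Plagl1 probes disagreed in this condition. Beside the probe used, a further probe read -1.04 at P0 and 0.06 at P2, while others went from -1.67 to -1.94 and from -2.45 to -2.90.

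**Figure D3:**
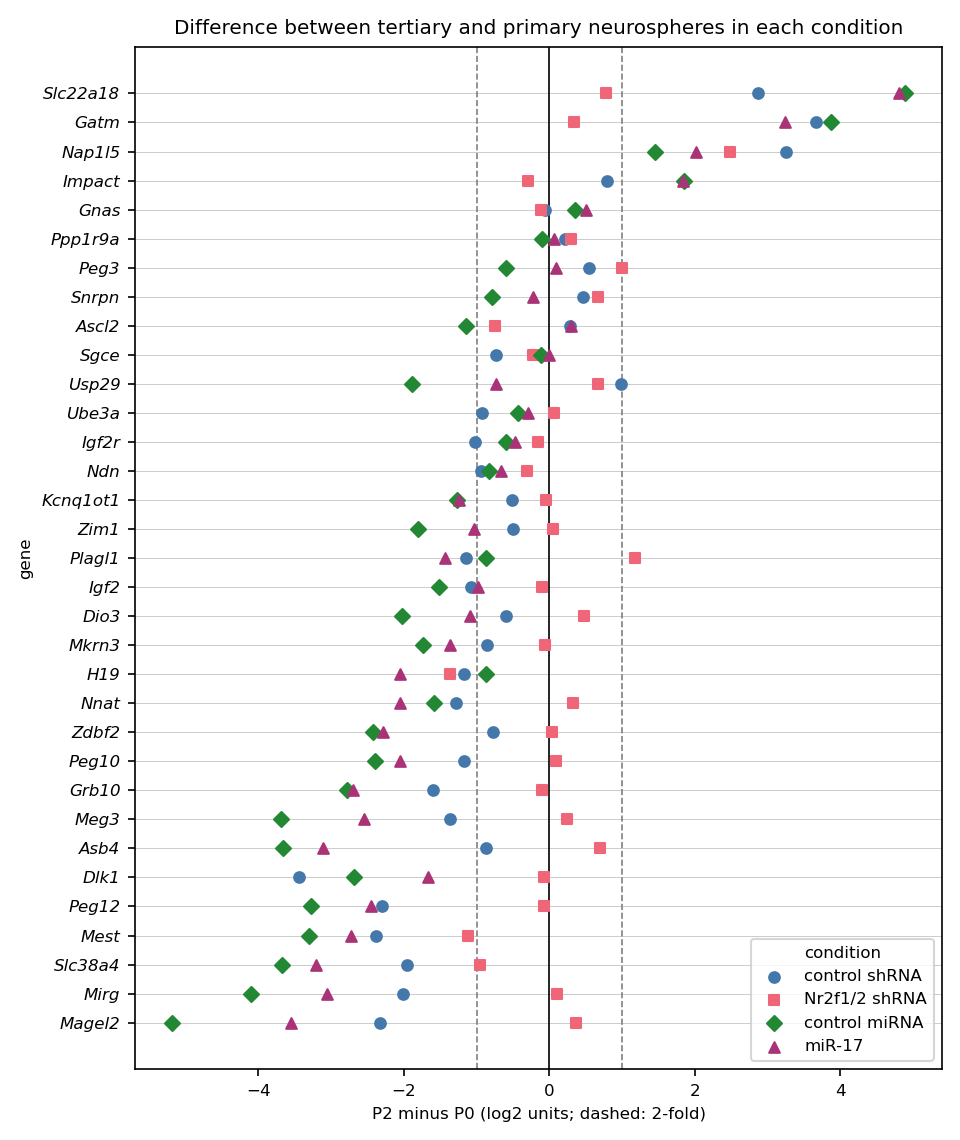
P2 minus P0 differences (log2 units, x axis) of 33 imprinted genes in each of 4 conditions, 1 pair of arrays per point, with dashed lines at 2-fold. The Nr2f1/2 shRNA squares lie between -1.37 and 2.48 (Nap1l5, whose P0 value was at background), and the control miRNA diamonds between -5.19 and 4.89.

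Between the Nr2f1/2 shRNA and control shRNA arrays, most imprinted genes differed little at P0 and more widely at P2. At P0, 1 member was at least 2-fold higher than with control shRNA (Slc38a4, 1.01 log2 units) and 0 at least 2-fold lower, where 4.49% and 1.22% of all genes were. At P2, 16 members were at least 2-fold higher and 3 at least 2-fold lower, against 9% and 9.88% of all genes. The median member difference was -0.07 at P0 and 0.97 at P2, with all-gene medians of 0.00059 and 0.07. Each of these compares 1 array with 1 array, and the control cultures also differed from each other at P2, as given further on.

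At P2 the members highest relative to control shRNA were Dlk1 (3.12 log2 units), Plagl1 (2.64), Peg12 (2.27), Mirg (2.03), Slc38a4 (2.01) and Magel2 (1.99). The 4 Plagl1 probes disagreed, with differences of 2.64, 2.34, 0.34 and -0.05, all well above background on the 8 arrays. Between 1.01 and 1.52 higher were Mest, Grb10, Asb4, Meg3, Igf2, Kcnq1ot1, Nnat, Igf2r, Peg10 and Dio3. The 3 lower members were Gatm (-2.58), Slc22a18 (-1.45) and Impact (-1.22), which were 3 of the 4 called higher with passage in the fit without the knockdown. On the probes used, all 4 kept genes of the Dlk1-Dio3 domain were higher, by 1.01 to 3.12, while the Meg3 probe at chr12:110799558-110799617 gave -0.85. These differences and the passage differences of the control shRNA condition share the control shRNA P2 array, so they are not independent of each other.

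Over both passages together, the limma knockdown effect called 0 members and 0% of all genes. An unadjusted p below 0.05 was reached by 0 members and by 516 of all genes, or 1.90%. At so low a share, the 0 says nothing particular about the members. The interaction term (1 residual degree of freedom) tested whether the P2 minus P0 difference with Nr2f1/2 shRNA departed from the mean of both controls. It takes in control miRNA, so it is not the change in Nr2f1/2 shRNA minus control shRNA alone. For Magel2 the P2 minus P0 difference was -2.33 with control shRNA and -5.19 with control miRNA. In this test, 0 members and 0% of genes passed. Unadjusted p-values below 0.05 were reached by 7 members (21.2% of them) and 1071 of all genes (3.95%). Of the 7, Dlk1 (3.0 log2 units, SE 0.76), Magel2 (4.12, SE 1.41), Mirg (3.15, SE 1.13), Peg12 (2.72, SE 0.80) and Plagl1 (2.18, SE 0.69) had positive terms, and Gatm (-3.43, SE 0.69) and Slc22a18 (-3.11, SE 1.11) negative ones. The adjusted p of each was 0.9998 in this limma fit. The Plagl1 term holds for the probe used, since the Plagl1 probes disagreed on the knockdown difference at P2.

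**Figure D4:**
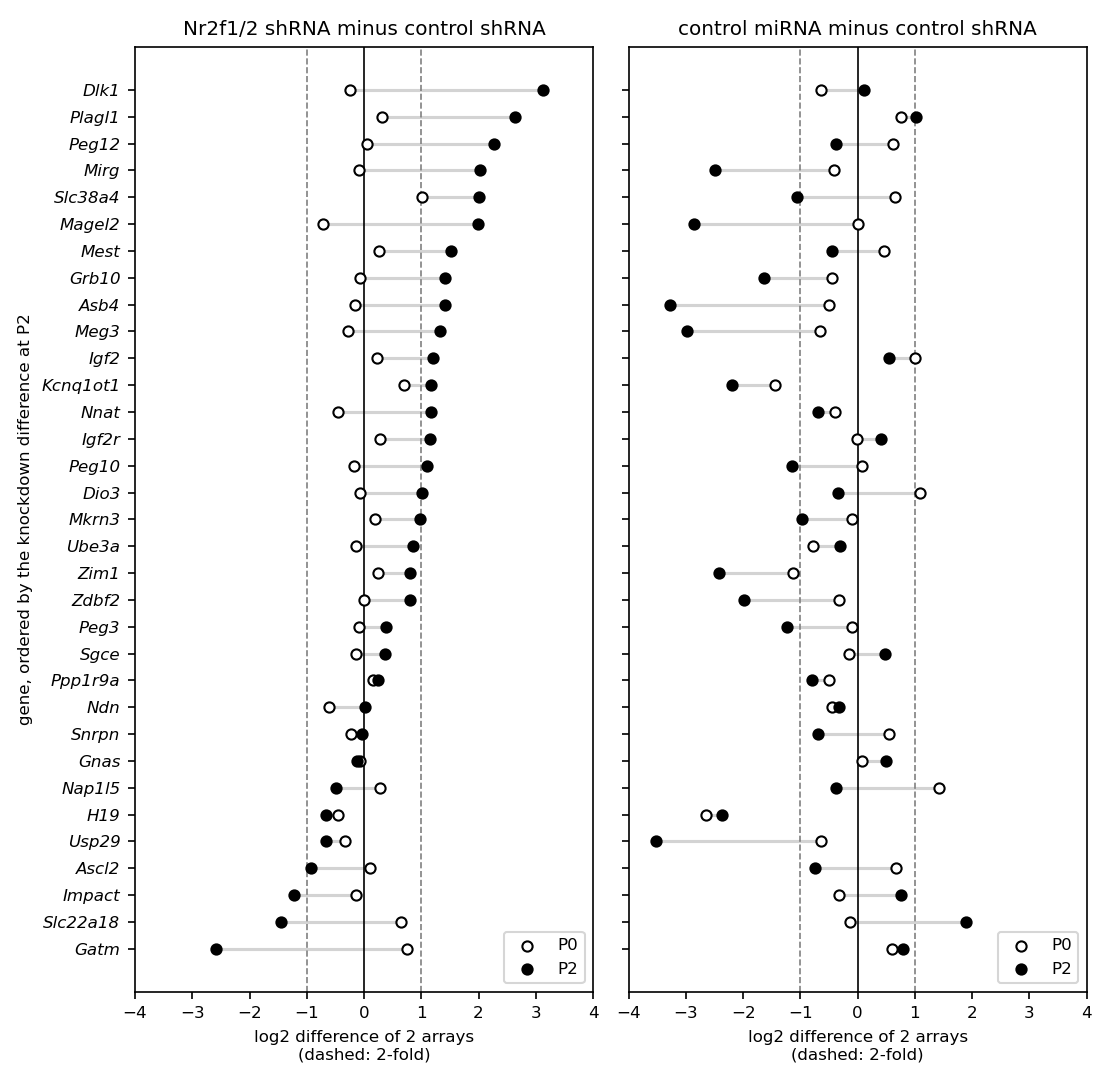
Differences of single arrays (log2 units, x axis) for 33 imprinted genes, with open points for P0, filled points for P2 and dashed lines at 2-fold. Left, Nr2f1/2 shRNA minus control shRNA, where Dlk1 reaches 3.12 and Gatm -2.58 at P2. Right, control miRNA minus control shRNA, where Usp29 reaches -3.52 at P2 and H19 -2.66 at P0.

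Overexpression of miR-17 left most members within 2-fold of the control miRNA. At P0, 1 member was at least 2-fold higher (H19, 2.26 log2 units) and 1 at least 2-fold lower (Ascl2, -1.21), where 4.61% and 2.16% of all genes were. At P2, 5 were at least 2-fold higher and 0 lower, against 4.16% and 1.94%. The 5 were Magel2 (1.52), Usp29 (1.31), Meg3 (1.25), Asb4 (1.19, and 0.50 on its other probe) and H19 (1.09). At P2, 24 members were above control miRNA and 9 below, with a median of 0.23. Of all genes 48.5% were above, with a median of -0.01. At P0, 15 members were above and 18 below, with a median of -0.07. Each of these compares 1 array with 1 array.

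H19 was the one member above control miRNA by 2-fold at both passages. Over both passages its miR-17 difference was 1.67 (SE 0.36, unadjusted p = 0.0049, adjusted p = 0.9998 by limma). Of its 7 probes, 6 were higher with miR-17 at P0, and the 1 that was not, the dimmest, differed by -0.34. The control miRNA array at P0 was also 2.66 below the control shRNA array for H19, while the miR-17 array was close to the shRNA arrays. The miR-17 effect called 0 members and 0% of all genes, with 1 member and 269 genes (0.99%) at an unadjusted p below 0.05. Its interaction with passage, also taken against the mean of both controls, called 0 members and 0%. In that limma fit 0 members and 295 genes (1.09%) had an unadjusted p below 0.05.

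The control cultures themselves differed. Relative to control shRNA, control miRNA had 2 members at least 2-fold higher and 3 at least 2-fold lower at P0, where 16.6% and 5.08% of all genes were. At P2 it had 2 higher and 13 lower, where 10.9% and 13.7% were. At P0 the higher members were Nap1l5 (1.42, at least 1.34-fold given a dim array) and Dio3 (1.09), and the lower ones H19 (-2.66), Kcnq1ot1 (-1.44) and Zim1 (-1.13). At P2 the lowest were Usp29 (-3.52), Asb4 (-3.29, and -0.92 on its other probe), Meg3 (-2.98), Magel2 (-2.86), Mirg (-2.49), Zim1 (-2.42), H19 (-2.36) and Kcnq1ot1 (-2.20), and the higher ones were Slc22a18 (1.89) and Plagl1 (1.02, with its other probes between -0.01 and 0.94). The difference between controls at P2 was thus as large for several members as that between knockdown and its control, and Dlk1 was among those that hardly differed (0.11).

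Lists of related genes were read in the same passage fit, in which 4.96% of all genes were called. As given above, leaving out any array other than those with Nr2f1/2 shRNA left 0 of all genes called. Of 44 other imprinted genes 37 were kept. Of these 1 was called higher (Rasgrf1, a Ras exchange factor, 2.76, SE 0.33, adjusted p = 0.0354) and 0 lower. Of the 37, 20 were lower and 17 higher at P2, with a median of -0.14, close to that of all genes. Igf2as (-2.11, adjusted p = 0.0543) and Cdkn1c, the cell cycle inhibitor of the Kcnq1ot1 domain (-2.02, adjusted p = 0.0545), did not pass. Of 22 factors that set or keep imprints, Dnmt3a, a de novo DNA methyltransferase, was called higher (1.16, SE 0.21, adjusted p = 0.0480). Dppa3, which shields the maternal genome from demethylation, was called lower (adjusted p = 0.0353). Dppa3 was well above background on 2 arrays, both at P0, and on none at P2. It thus passed the filter only through P0, where it was high. Its fit uses the background values of the other arrays, so the call is no support for a difference. No fold bound is given for it. The list median was -0.26. Uhrf1, which brings Dnmt1 to replicated DNA (-2.39, adjusted p = 0.0735), and Zfp57 (-1.98, adjusted p = 0.0723) did not pass.

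Of 18 genes of the insulin-like growth factor axis, Igfbp5, a secreted IGF-binding protein, was called higher (1.49, SE 0.23, adjusted p = 0.0420). The protease gene Pappa (-3.77, SE 0.59, adjusted p = 0.0428) and Igf2bp2, whose product binds Igf2 mRNA (-1.76, SE 0.24, adjusted p = 0.0373), were called lower. The binding protein gene Igfbp1 was called lower (adjusted p = 0.0449) with 2 of its 4 P2 arrays not well above background, and was at least 4.61-fold lower at P2. The list median was -0.50, beside -0.21 for all genes, of which 4.96% were called.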

How the data were processed

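Total RNA was hybridised to 1-colour (Cy3) Agilent arrays, 1 per group. The deposited scanner files give the authors' spot intensity (gProcessedSignal), which is, per the file headers, background-subtracted and detrended. The submitters' processing notes name Agilent Feature Extraction, version 10.7.3.1. The authors' deposited value table holds signal on a linear scale that equals those intensities divided by 1 constant per array, and was used as an alternative. From the intensities, control spots and 1104 outlier spots were left out, log2 was taken, and each array's 75th percentile was subtracted. A gene's value is its probe with the highest mean intensity over 8 arrays, and a gene stayed if at least 2 arrays had that probe well above background. limma 3.58.1 (R 4.3.3) was fitted to all 27146 kept genes with condition and passage (3 residual degrees of freedom, prior 2.19), with Benjamini-Hochberg adjustment. The values of 1 further probe of a member are not reported here. The number of arrays limits the precision. On simulated data the passage fit recovered 59% of 100 genes changed by 2 log2 units and 93% of 100 changed by 4, with 12 false calls. There each change was the same in all 4 conditions and the noise was normal. In the data the passage differences varied with condition, so these rates need not hold for them. Members were named with all 8 values where called or at least 2-fold apart in a comparison of conditions, otherwise by means, SDs or differences. The members and lists were chosen with earlier results of these data known, and the P2 minus P0 differences within conditions were added after the values were seen.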

Additional observations from a re-analysis of the deposited data

Results flagged for a closer look

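In 66 groups of 4 arrays (33 genes at each passage), 4 had an array far from the other 3 by Dixon's criterion, which chance passes in about 1 group in 20. Peg3 was lowest with miR-17 at P0 (0.58, nearest 1.25). Magel2 was lowest with Nr2f1/2 shRNA at P0 (3.59, nearest 4.17). Peg12 was highest with control miRNA at P0 (3.20, nearest 2.64) and highest with Nr2f1/2 shRNA at P2 (2.56, nearest 0.29). The arrays within a group are different conditions, so such a gap is not one between replicates, and its cause was not tested.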

How the results depend on the processing

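The count of members called higher with passage was 1 in the reported fit, 3 with normexp background correction, 2 with a filter on all 8 arrays, 3 with a trended prior, 3 without the condition block, 0 in the control conditions alone and 0 to 4 when each array was left out. The count called lower was 1, with 7 under normexp, 0 under quantile normalization, 2 in the authors' value table, 4 with the all-array filter, 2 with the mean of a gene's probes, 4 with a trended prior, 3 without the condition block, 0 in the control conditions alone, 0 in the fit with interactions and 0 to 13 when each array was left out. Leaving out either Nr2f1/2 shRNA array gave the 4 and 13, and 4785 of all genes, and leaving out any other array gave 0 members and 0 of all genes. Over all genes the called count was 1347, 7021 with normexp, 1423 with quantile normalization, 3654 with the all-array filter, 4290 with a trended prior and 3906 without the block, and 52.6% of calls were higher in the reported fit, 30.7% with normexp and 66.2% with quantile normalization. The all-gene passage median was -0.21 as reported and -0.02 with quantile normalization, and 25, 25, 26 and 25 members were lower under the reported, normexp, quantile and authors' scaling. The control conditions alone, with 4 arrays, called 0 of all genes.

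Members past the fold limit numbered 1 for the knockdown at P0, with 6 at 1.5-fold, 0 at 3-fold, 0 with normexp, 0 in the authors' table and 2 without the filter. For the knockdown at P2 the 19 became 7 at 3-fold. For miR-17 at P0 the 2 became 7 at 1.5-fold, 1 at 3-fold and 1 with normexp, and at P2 the 5 became 10 at 1.5-fold, 0 at 3-fold and 3 with normexp. For the controls at P0 the 5 became 15 at 1.5-fold, 1 at 3-fold, 2 with normexp and 3 with the all-array filter.

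Among small passage differences, Peg3 was -0.026 in the control conditions alone, Usp29 ran from -0.65 to 0.31 and Snrpn from -0.18 to 0.30 when each array was left out, the Snrpn passage difference was -0.00867 with quantile normalization and -0.16 in the control conditions, and with the mean of probes Ppp1r9a was -0.11 and Gnas -0.63. The knockdown difference of Peg12 over both passages ran from -0.14 to 2.46 when each array was left out. The causes were not tested, other than that fewer arrays enter a fit without one. The passage fit pairs the arrays by condition, and without that block 3 members were called in each direction.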

Other observations

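The interval of chromosome 12 between the Meg3 and Mirg probes (chr12:110809737-110987569, mm9), chosen after the member values were seen, holds probes that mostly carry no gene name. On the plus strand, the strand of Meg3 and Mirg, 43 of 44 probes passed the filter, 6 of them with a gene name, among which is 1 of Mirg. Of these 41 were lower at P2 (median passage difference -1.44 log2 units, range -2.43 to 0.27), and 42 were higher with Nr2f1/2 shRNA than with control shRNA at P2 (median 1.38). At P0 the knockdown median was 0.05, with 25 probes above 0 and 18 below. With Nr2f1/2 shRNA the P2 minus P0 median was 0.23, against -1.07 with control shRNA, -2.51 with control miRNA and -2.45 with miR-17. On the minus strand 18 of 27 probes passed, all 18 lower at P2 (median -1.35). Neighbouring probes can lie on 1 transcript, so these are descriptions of 1 interval and not separate results.

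The Gnas locus gave unlike values along its length. On 2 probes upstream of the one used, well above background on 7 and 8 arrays, the knockdown difference at P2 was -1.0 and -1.91, and control miRNA minus control shRNA at P2 was -2.45 and -2.60. The downstream probe differed by -0.12 and 0.49. The remaining upstream probe was well above background on 2 arrays and is given no value.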
